A study of Homo sapiens with 12 samples.

Results

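The aminoacyl-tRNA synthetase genes described here are the protein-coding genes for the cytosolic and mitochondrial enzymes that load amino acids onto tRNAs. They were chosen by symbol and by not lying on chromosome 7, by a rule that uses no expression value of a member. They number 34 of the 15074 genes measured, of which 18 encode cytosolic enzymes and 16 encode mitochondrial ones. HCT116 is a human colorectal carcinoma line. RNA was measured in 4 forms of it: knockout cells carrying the 5xA mutant of AGO2 with an FH tag (FH-5xA), knockout cells carrying wild-type AGO2 with the same tag (FH-WT), AGO2 knockout cells, and the parental line. FH-5xA and FH-WT cells therefore share the knockout with the cells they were made from. Each form was grown in biological triplicate, per the labels, and harvested after 48 h, so p-values reflect the spread between 3 replicates of a line and not between independently made lines. Whether each line is a single clone, and which promoter drives the FH-tagged proteins, is not stated in the sources used. MicroRNAs direct AGO2, an Argonaute protein, to mRNAs, and the study asks how a cycle of AGO2 phosphorylation bears on that silencing.

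Each synthetase attaches an amino acid to its tRNAs in a reaction that consumes ATP. Cytosolic enzymes serve the ribosomes of the cytoplasm, and a separate nuclear-encoded set, marked by the ending ARS2, is imported into mitochondria. Several of the cytosolic enzymes assemble into a multisynthetase complex. Many cytosolic synthetase genes are known targets of ATF4, a transcription factor that is translated when amino acids run short or the endoplasmic reticulum is stressed, and that binds promoter elements containing the sequence TGATGCAA.

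The authors' deposited edgeR tables give, for each gene, a log2 fold change, a mean expression over the libraries (log2 CPM, read counts scaled to library size), a likelihood ratio and a false discovery rate. Genes are called where the false discovery rate is below 0.05. The tables hold no value per library. The standard error (SE) of a fold change was therefore computed from its likelihood ratio, and a derived level of each line was obtained by sharing the deposited mean expression among the 4 lines according to the deposited fold changes. Derived levels carry no error of their own. Of 37 synthetase genes listed, 35 had a row. VARS1 and VARS2 were not analysed here. GARS1, for glycyl-tRNA synthetase, was left out because it lies on the short arm of chromosome 7, where the median log2 fold change of 226 genes was -0.90 in knockout against parental cells. GARS1 itself was at -1.36 ± 0.09 (SE) in that authors' deposited table. The targeted gene AGO2 fell by 0.35 ± 0.07 on the log2 scale (false discovery rate 1.42e-06) in knockout against parental cells in the authors' deposited table, and was higher than in knockout cells by 0.73 in FH-5xA cells and by 0.75 in FH-WT cells. Of 6 colorectal epithelial markers 5 had a row, and 0 of 9 markers of other cell types had one. In knockout against parental cells 3 of the 5 were lower and 0 higher in the authors' deposited edgeR table, with CDH1 at -0.97 and a range up to -0.04. Over all genes 21.2% were called lower and 23.2% higher in that comparison. Against knockout cells CDH1 was at -0.24 in FH-5xA cells (edgeR false discovery rate 0.058, not called) and at -0.67 in FH-WT cells. EPCAM was at 0.12 and 0.06 and CDX2 at 0.11 and 0.15 in the same order. KRT18 was at -0.12 and -0.20 and KRT8 at -0.12 and -0.17. Of the 5 markers 0 were called in FH-5xA cells and 1, CDH1, in FH-WT cells. Over all genes 5.04% were called higher and 6.24% lower in FH-5xA cells, and 4.21% higher and 5.85% lower in FH-WT cells. The derived difference of CDH1, FH-5xA minus FH-WT, was 0.43 (adjusted p = 0.002 by chi-square on deposited edgeR values), and it was the only marker called there. Its adjusted p with the larger variance applied to the synthetase genes below is not given here. The part of these markers in the synthetase values was not tested.

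The promoter sequences that carry the searched ATF4 element are shown first, because the 6 genes that hold it are all cytosolic. The RefSeq table (GRCh38.p14) gave promoter windows, from 250 bases before to 50 after a start, for 29 of the 34 genes. The windows of 6 of 15 cytosolic genes and of 0 of 14 mitochondrial genes held TGATGCAA on either strand, against 1.08% of all 27305 genes with a window. LARS1, YARS1 and AARS2 were among the genes with no window. Each line below gives 60 bases in the direction of the gene, with the element or its reverse complement in capitals.
AARS1: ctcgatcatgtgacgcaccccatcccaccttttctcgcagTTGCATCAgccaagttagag
CARS1: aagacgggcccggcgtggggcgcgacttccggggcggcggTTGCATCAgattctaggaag
IARS1: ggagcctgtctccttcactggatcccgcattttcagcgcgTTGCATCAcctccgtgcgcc
MARS1: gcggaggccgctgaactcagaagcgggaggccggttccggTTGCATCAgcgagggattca
NARS1: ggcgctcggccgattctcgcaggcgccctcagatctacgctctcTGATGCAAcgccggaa
TARS1: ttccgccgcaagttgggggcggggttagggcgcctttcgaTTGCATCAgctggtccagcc

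On GRCh38 these stretches lie at chr16:70289674-70289733 on the minus strand for AARS1, at chr11:3057406-3057465 on the minus strand for CARS1 and at chr9:92293691-92293750 on the minus strand for IARS1. They lie at chr12:57488024-57488083 on the plus strand for MARS1, at chr18:57621807-57621866 on the minus strand for NARS1 and at chr5:33440927-33440986 on the plus strand for TARS1. The element was nearest the start in CARS1, MARS1 and TARS1 and farthest in AARS1, 187 bases upstream. With the sixth base left free (TGATGNAA, which includes every TGATGCAA), the mitochondrial gene YARS2 also matched, against 4.46% of all genes. A repeat found in interferon-response elements, GAAANNGAA, was searched in the same way and occurred for WARS1, IARS1 and EARS2, against 9.86% of all genes. A match says only that these letters are present in the window.

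By median, cytosolic synthetase mRNAs were several times more abundant than mitochondrial ones in every line. In bulk RNA, fewer cells that express a gene and less of its RNA per cell cannot be told apart. Per kilobase of exon, the median derived level of the 18 cytosolic genes was 73.4 CPM in FH-5xA cells, 81.4 in FH-WT cells, 66.1 in knockout cells and 104.6 in parental cells. For the 16 mitochondrial genes it was 13.2 CPM per kilobase in FH-5xA cells, 12.7 in FH-WT cells, 12.3 in knockout cells and 16.4 in parental cells. The isoleucyl enzyme gene IARS1 was the most abundant member per kilobase, at 186, 195, 179 and 215 CPM per kilobase in the same order of lines. The most abundant mitochondrial member was its counterpart IARS2, at 53.0, 51.3, 53.6 and 58.3 CPM per kilobase. The row of CARS1, for cysteinyl-tRNA synthetase, stood below every other member with derived levels of 0.436, 0.456, 0.263 and 0.582 CPM per kilobase. Whether that row holds the gene's full reads depends on the authors' annotation and counting, which the sources used do not describe, so its values are uncertain. Summed over the cytosolic genes, derived levels came to 5050 CPM in FH-5xA cells, 5552 in FH-WT cells, 4863 in knockout cells and 6369 in parental cells. The mitochondrial sums differed less, at 808, 777, 779 and 892 CPM.

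The knockout line held less cytosolic synthetase mRNA than the parental line. Of the 18 cytosolic genes, 14 fell and 1 rose in knockout against parental cells in the authors' deposited table, with a median log2 fold change of -0.39. Without KARS1, which serves both compartments, the cytosolic median was -0.44. Of the 16 mitochondrial genes, 5 fell and 0 rose, with a median of -0.20. Over all genes in that comparison 21.2% were called lower and 23.2% higher, and the median was -0.01. Cytosolic genes are also better expressed, with a median mean expression of 7.96 against 5.52 log2 CPM for mitochondrial ones, and well expressed genes were called lower more often. Among genes of at least 7 log2 CPM, 30.3% were called lower, against 12 of the 16 cytosolic members of that level. Between 2 and 7 log2 CPM, 22.1% of genes were called lower, against 5 of 15 mitochondrial members. Median SEs were close, at 0.08 for cytosolic and 0.10 for mitochondrial members. These counts and medians describe the lists; the difference between the compartments was not tested.

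Among the cytosolic members outside the multisynthetase complex, YARS1, for tyrosyl-tRNA synthetase, had the lowest false discovery rate. Its derived level was 210 CPM in knockout cells against 344 CPM in parental cells, and it fell by 0.71 ± 0.07 on the log2 scale in the authors' deposited edgeR table (false discovery rate 1.15e-21). WARS1, for tryptophanyl-tRNA synthetase, was at 124 CPM in knockout cells against 197 CPM in parental cells, and it fell by 37.3% (false discovery rate 2.27e-19). AARS1, the alanyl enzyme, was at 241 CPM in knockout cells against 370 CPM in parental cells and fell by 0.62 ± 0.08 (false discovery rate 8.66e-14). TARS1 and SARS1, for the threonyl and seryl enzymes, fell by 0.59 ± 0.08 and 0.55 ± 0.09 in the same deposited table. NARS1, the asparaginyl enzyme, fell by 0.32 ± 0.10. The uncertain row of CARS1 fell by 1.15 ± 0.25, the least precise fold change of the 34 genes, at 0.821 CPM in knockout cells against 1.82 CPM in parental cells. FARSA and FARSB encode the subunits of phenylalanyl-tRNA synthetase; FARSB fell by 0.19 ± 0.08, while FARSA was at -0.10 ± 0.12 and was not called. HARS1, the histidyl enzyme, was the member called higher, at 0.17 ± 0.07 (false discovery rate 0.048), with 176 CPM in knockout cells and 156 CPM in parental cells. That call was lost when p-values were adjusted without chromosome 7 and at a false discovery rate of 0.01.

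The multisynthetase complex has 8 members here, and 6 of them fell in knockout against parental cells in the authors' deposited table. Called lower in that comparison were 21.2% of all genes and 30.3% of genes of at least 7 log2 CPM. MARS1, the methionyl enzyme, fell by 0.61 ± 0.09 and LARS1, the leucyl enzyme, by 0.52 ± 0.08. EPRS1, whose single protein joins glutamyl and prolyl activities, fell by 0.44 ± 0.08. IARS1 and KARS1, for the isoleucyl and lysyl enzymes, fell by 0.27 and 0.24 on the log2 scale. RARS1, the arginyl enzyme, was at -0.15 ± 0.07 and was not called. QARS1, the glutaminyl enzyme, was at -0.01 ± 0.08, with a 95% interval of -0.16 to 0.15. The median of the complex was -0.30, and that of the 10 cytosolic genes outside it was -0.57. AIMP1 and EEF1E1, noncatalytic subunits of the complex, were at -0.20 and -0.21 and were not called; the third, AIMP2, lies on chromosome 7.

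Among mitochondrial members, NARS2, the asparaginyl enzyme, fell by 0.51 ± 0.09 in knockout against parental cells in the authors' deposited table (false discovery rate 4.89e-07). Its derived level was 34.9 CPM in knockout cells and 49.8 CPM in parental cells. CARS2, AARS2 and YARS2, for the cysteinyl, alanyl and tyrosyl enzymes, fell by 0.39, 0.27 and 0.21. Of the 16 mitochondrial genes 14 were below 0, and 11 were not called. Among those not called, SARS2, MARS2 and PARS2, for the seryl, methionyl and prolyl enzymes, were at -0.27 ± 0.16, -0.26 ± 0.15 and -0.23 ± 0.11. The 2 above 0 were WARS2, the tryptophanyl enzyme, at 0.00 ± 0.11 and FARS2, the phenylalanyl enzyme, at 0.05 ± 0.13.

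**Figure D1:**
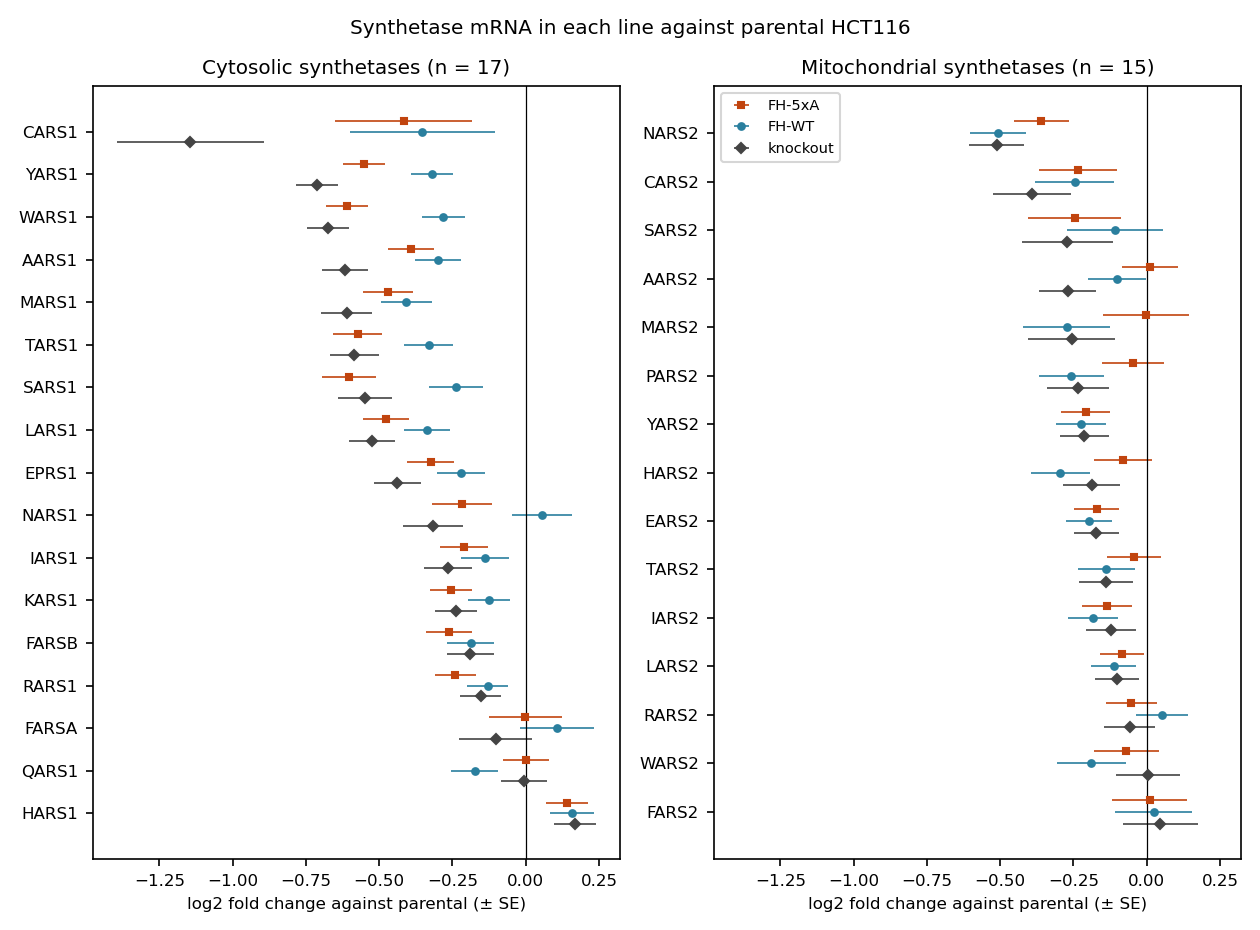
Deposited log2 fold change of 17 cytosolic and 15 mitochondrial synthetase genes against parental cells, with SE bars, in FH-5xA, FH-WT and knockout cells; genes are ordered by the knockout value. Most knockout points lie below 0, and in WARS1 and SARS1 the FH-WT point stands nearer 0 than the other points.

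For 13 amino acids both a cytosolic and a mitochondrial synthetase gene were measured, which allows a comparison within each amino acid. In knockout against parental cells the cytosolic gene had the lower deposited fold change in 10 of 13 pairs, with a median difference of -0.35. The histidyl and asparaginyl pairs were among the exceptions. The tryptophanyl pair and the cysteinyl pair, which rests on the uncertain CARS1 row, lay farthest apart, with cytosolic minus mitochondrial values of -0.68 and -0.75. In FH-5xA against knockout cells the cytosolic gene was the higher in 5 of 13 pairs, with a median difference of -0.05. In FH-WT against knockout cells it was the higher in 11 of 13 pairs, with a median difference of 0.20.

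**Figure D2:**
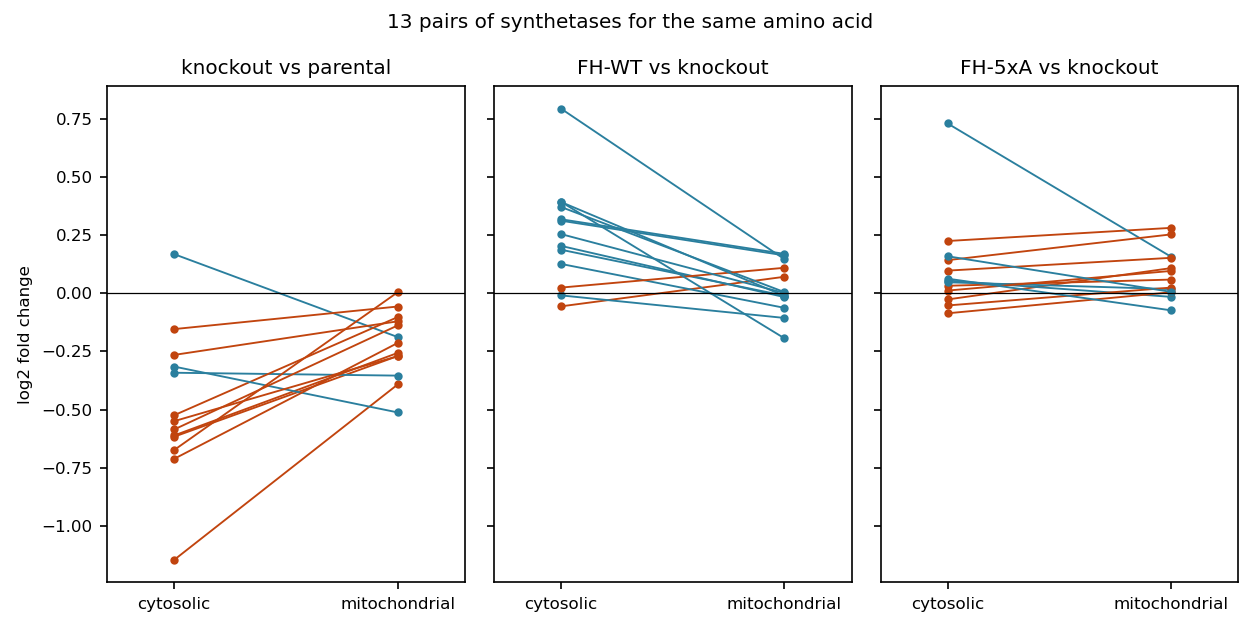
Deposited log2 fold change of 13 pairs of synthetase genes for the same amino acid, cytosolic on the left and mitochondrial on the right of each panel, blue where the cytosolic value is higher and red where it is lower. The cytosolic value is lower in 10 pairs for knockout against parental cells, higher in 11 pairs for FH-WT against knockout cells and higher in 5 pairs for FH-5xA against knockout cells.

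The lines with returned AGO2, 1 for each form, were then compared with knockout cells. These comparisons share the same 3 knockout libraries with each other and with knockout against parental cells. In FH-5xA against knockout cells 1 cytosolic gene and 1 mitochondrial gene rose and 0 members fell, where 5.04% of all genes were called higher and 6.24% lower. In FH-WT against knockout cells 6 cytosolic genes and 0 mitochondrial genes rose and 0 members fell, where 4.21% of all genes were called higher and 5.85% lower. At an unadjusted p under 0.05 with edgeR, 0 members were lower in FH-5xA cells, and in FH-WT cells 1 was lower and 0 mitochondrial genes were higher. Among genes of at least 7 log2 CPM, 9.4% were called higher in FH-WT against knockout cells, against 6 of 16 cytosolic members. Between 2 and 7 log2 CPM, 3.93% were called higher, against 0 of 15 mitochondrial members. Shares by expression level are not given for FH-5xA against knockout cells. Median log2 fold changes of the cytosolic genes were 0.05 in FH-5xA and 0.21 in FH-WT cells, and those of the mitochondrial genes were 0.04 in FH-5xA and -0.01 in FH-WT cells. All 6 of the genes that rose in FH-WT cells lie outside the multisynthetase complex, whose 8 members had 0 calls in either comparison with edgeR and medians of 0.04 in FH-5xA and 0.12 in FH-WT cells. At an unadjusted p under 0.05 the complex had 0 members past the threshold in FH-5xA cells, and 3 higher and 1 lower in FH-WT cells.

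WARS1 was at 129 CPM in FH-5xA cells, 162 CPM in FH-WT cells and 124 CPM in knockout cells by derived level. Its log2 fold change against knockout cells was 0.06 ± 0.07 in FH-5xA cells and 0.39 ± 0.07 in FH-WT cells in the authors' deposited edgeR tables (false discovery rates 0.65 and 7.49e-06), and the 95% interval in FH-5xA cells was -0.08 to 0.20. FH-WT cells stood between the knockout and parental levels; against the knockout level, FH-5xA cells did not differ from it beyond their SE. YARS1 was at 235 CPM in FH-5xA cells, 276 CPM in FH-WT cells and 210 CPM in knockout cells, with log2 fold changes of 0.16 ± 0.07 and 0.39 ± 0.07 (false discovery rates 0.14 and 6.00e-06). SARS1 was at 180 CPM in FH-5xA cells, 232 CPM in FH-WT cells and 187 CPM in knockout cells, with -0.05 ± 0.09 and 0.31 ± 0.09 (false discovery rates 0.79 and 0.015). The call was therefore made in FH-WT cells for each of these 3 genes.

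NARS1 and TARS1 had the same calls in the authors' deposited edgeR tables. NARS1 was at 0.10 ± 0.10 in FH-5xA cells and rose by 0.37 ± 0.10 in FH-WT cells against knockout cells (false discovery rate 0.007 in FH-WT cells). TARS1 was at 0.01 ± 0.08 in FH-5xA cells and rose by 0.25 ± 0.08 in FH-WT cells (false discovery rate 0.03 in FH-WT cells). AARS1 rose in both lines, by 0.22 ± 0.08 in FH-5xA cells (false discovery rate 0.04) and by 0.32 ± 0.08 in FH-WT cells (false discovery rate 0.002). CARS1 was at 0.73 ± 0.27 in FH-5xA cells and 0.79 ± 0.28 in FH-WT cells, and neither was called. The mitochondrial alanyl enzyme gene AARS2 rose by 0.28 ± 0.10 in FH-5xA cells (false discovery rate 0.04) and was at 0.17 ± 0.10 in FH-WT cells.

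Set against parental cells, both lines with returned AGO2 still held less cytosolic synthetase mRNA. In FH-5xA against parental cells 13 cytosolic and 3 mitochondrial genes fell and 0 members rose in the authors' deposited edgeR table, where 20.9% of all genes were called lower and 22.9% higher. In FH-WT against parental cells 9 cytosolic and 5 mitochondrial genes fell and 0 members rose, where 16.1% of all genes were called lower and 18.3% higher. Most cytosolic members are of at least 7 log2 CPM, and shares among genes of that level are not given for these comparisons. The cytosolic medians were -0.32 in FH-5xA and -0.23 in FH-WT cells. The mitochondrial medians were -0.08 in FH-5xA and -0.19 in FH-WT cells. WARS1 was at -0.61 in FH-5xA and -0.28 in FH-WT cells, SARS1 at -0.60 and -0.24, and YARS1 at -0.55 and -0.32 in the same order of lines. NARS2 fell in both lines, by 0.36 ± 0.09 in FH-5xA cells and by 0.51 ± 0.10 in FH-WT cells.

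No deposited table compares the mutant with wild-type AGO2 directly, so their log2 difference was derived by subtracting the FH-WT from the FH-5xA fold change, both taken against knockout cells. Its variance was solved from the 5 tables and p-values were adjusted over 15072 genes. SARS1 (chr1:109213918-109238169), WARS1 (chr14:100333788-100376805) and YARS1 (chr1:32775237-32818153, all GRCh38 in GENCODE 29) were lower in FH-5xA than in FH-WT cells. No member was called higher, and at an unadjusted p under 0.05 QARS1 and HARS2 were higher; over all genes 2.13% were called lower and 1.98% higher. SARS1 was lower by a derived log2 difference of -0.36 ± 0.09 (adjusted p = 0.009), WARS1 by -0.33 ± 0.07 (adjusted p = 0.002) and YARS1 by -0.23 ± 0.07 (adjusted p = 0.04) with the chi-square test on deposited edgeR values. With the larger variance obtained by adding both squared SEs against knockout cells, which counts the knockout libraries once for each comparison, none of the 3 was called, with adjusted p of 0.30 to 0.61.

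Of the 18 cytosolic genes 16 had a difference below 0, with a median of -0.11. QARS1 was above 0, at 0.18 ± 0.08. TARS1 and NARS1 lay between WARS1 and YARS1 in size, at -0.24 ± 0.08 and -0.27 ± 0.10, and were not called (adjusted p = 0.07 and 0.10 from the deposited edgeR values). AARS1 differed by -0.09 ± 0.08, with a 95% interval of -0.25 to 0.06. Of the 16 mitochondrial genes 12 had a difference above 0, with a median of 0.04 and 0 calls. MARS2, HARS2 and PARS2, for the mitochondrial methionyl, histidyl and prolyl enzymes, were at 0.27 ± 0.15, 0.21 ± 0.10 and 0.21 ± 0.11. The cytosolic gene had the lower difference in 12 of 13 pairs for the same amino acid, with a median of -0.23 between pair members. The 10 cytosolic genes outside the complex were all below 0 with a median of -0.17, and the 8 within it had a median of -0.09. AGO2 itself differed by -0.02 ± 0.07.

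**Figure D3:**
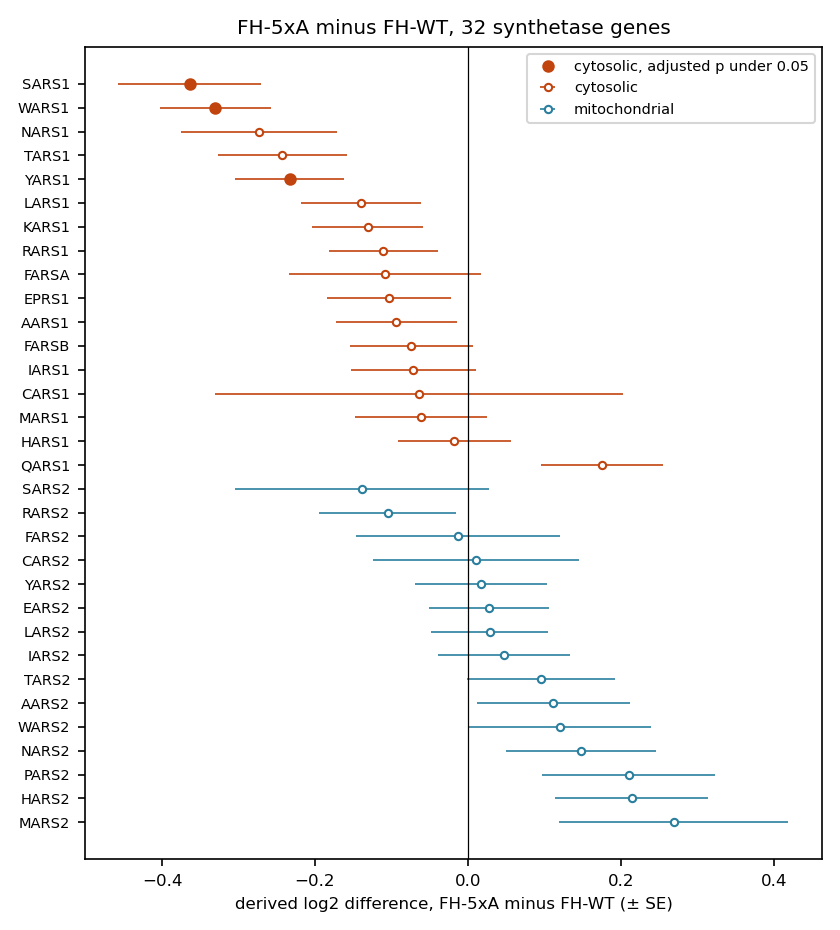
Derived log2 difference, FH-5xA minus FH-WT, with SE bars, for 17 cytosolic and 15 mitochondrial synthetase genes; filled points have an adjusted p under 0.05. SARS1, WARS1 and YARS1 are filled, at -0.36, -0.33 and -0.23, and 12 mitochondrial genes lie above 0.

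The cytosolic genes were also read by the promoter element shown above. All 6 genes with TGATGCAA fell in knockout against parental cells in the authors' deposited table, with a median of -0.60 and a range of -1.15 to -0.27; without CARS1 the median was -0.59 and the range -0.62 to -0.27. Of the 9 cytosolic genes with a window but no element, 5 fell and 1 rose, with a median of -0.19. In FH-5xA against knockout cells 1 of the 6 with the element and 0 of the 9 without it rose with edgeR, with medians of 0.12 and -0.02. In FH-WT against knockout cells 3 of the 6 and 2 of the 9 rose, with medians of 0.29 and 0.11. Over all genes, 21.2% were called lower and 23.2% higher in knockout against parental cells. Against knockout cells 5.04% of all genes were called higher in FH-5xA and 4.21% in FH-WT cells. Among genes of at least 7 log2 CPM the shares were 30.3% lower in knockout cells and 9.4% higher in FH-WT cells. WARS1 and SARS1, which fell by more than 0.5 in knockout cells, had no such element in their windows. YARS1 had no window. In FH-5xA minus FH-WT the medians were -0.08 with the element and -0.11 without it. The difference between genes with and without the element was not tested.

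**Figure D4:**
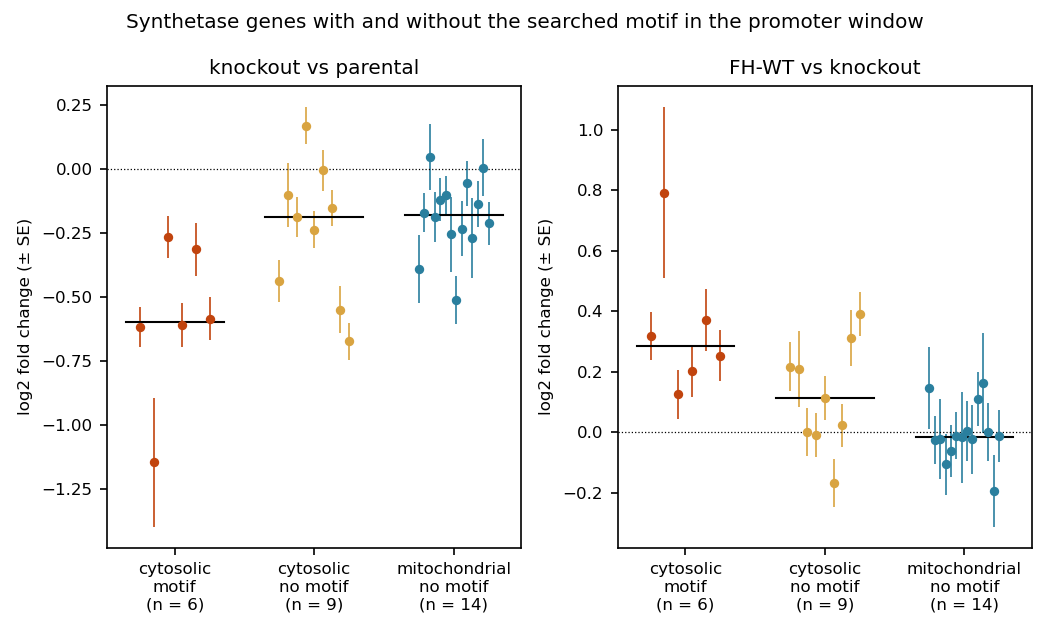
Deposited log2 fold change with SE bars for cytosolic genes with the element in the promoter window (n = 6), cytosolic genes without it (n = 9) and mitochondrial genes without it (n = 14), in knockout against parental cells and in FH-WT against knockout cells; bars mark medians. In the first panel the medians are -0.60, -0.19 and -0.18, and 2 cytosolic genes without the element, WARS1 and SARS1, lie below -0.5.

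Genes of the ATF4 amino acid response were read beside the synthetases, with no test of shared change. Of 26 listed, 23 were measured. In knockout against parental cells 16 fell and 3 rose with a median of -0.67 in the authors' deposited table. Over all genes 21.2% were called lower and 23.2% higher there. PHGDH, which starts serine synthesis, fell by 1.46 ± 0.07, and TRIB3, an ATF4-induced pseudokinase, by 1.42 ± 0.10. Both ASNS and PSPH of this list lie on chromosome 7. In FH-5xA against knockout cells 6 of the 23 rose and 0 fell with edgeR, with a median of 0.18. In FH-WT against knockout cells 11 of the 23 rose and 0 fell, with a median of 0.25. Over all genes 5.04% were called higher in FH-5xA cells and 4.21% in FH-WT cells. In FH-5xA minus FH-WT 4 were lower and 0 higher, where 2.13% of all genes were called lower. CHAC1, a glutathione-degrading enzyme, was at -0.82 ± 0.19 and TRIB3 at -0.38 ± 0.10. DDIT3, a stress-induced transcription factor, was at -0.36 ± 0.11 and ASNS, asparagine synthetase, at -0.31 ± 0.08. The adjusted p-values of these 4 genes, by chi-square on deposited edgeR values, lay between 0.003 and 0.03. With the summed variance none of the 4 was called, with adjusted p of 0.38 to 0.58. Their part in the synthetase values was not tested.

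Amino acid transporters were counted likewise. Of 11 measured, 8 fell and 1 rose in knockout against parental cells in the authors' deposited table, with a median of -0.55. The shares of all genes there were 21.2% lower and 23.2% higher. SLC7A5 and SLC3A2, the chains of a leucine transporter, fell by 0.89 ± 0.12 and 1.08 ± 0.11. In FH-5xA against knockout cells 1 rose and in FH-WT against knockout cells 4 rose, and 0 fell in either with edgeR. The shares of all genes called higher were 5.04% in FH-5xA and 4.21% in FH-WT cells. SLC1A4 and SLC1A5, carriers of neutral amino acids, were lower in FH-5xA than in FH-WT cells, by -0.45 ± 0.14 and -0.30 ± 0.09 (adjusted p = 0.045 and 0.035 on deposited edgeR values, and 0.64 and 0.60 with the summed variance).

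Other genes of translation were read in knockout against parental cells, where 21.2% of all genes were called lower and 23.2% higher. Of 12 partners of tRNA charging, such as editing factors and the mitochondrial amidotransferase subunits, 2 fell in knockout against parental cells in the authors' deposited table, with a median of -0.11; DTD1, a D-aminoacyl-tRNA deacylase, fell by 0.41 ± 0.07. Of 3 cytosolic elongation factors and 4 mitochondrial ones, 1 each fell: EEF1B2 by 0.31 ± 0.10 and TSFM by 0.21 ± 0.08. Of the 18 mitochondrial ribosomal protein genes listed, 7 fell and 0 rose, with a median of -0.23. These values describe the list and not the whole family. WARS1 is also known to be induced by interferon. Of 7 measured interferon-response genes 4 rose and 0 fell in knockout against parental cells, among them IFIT2 by 2.34 ± 0.14 and IRF1 by 0.85 ± 0.09, where WARS1 fell by 0.67 ± 0.07. In FH-5xA against knockout cells IFIT2 fell by 1.12 ± 0.13, and in FH-WT against knockout cells by 0.91 ± 0.13.

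Some members share exon sequence with neighbouring genes, and no source used here says whether the authors' counting used strand. In GENCODE 29, 17 of the 34 genes overlap an exon of a gene on the opposite strand, and in 8 of them the overlap exceeds 5% of exon length. MARS1 shares 12.4% with ARHGAP9 and DDIT3, HARS2 shares 11.7% with HARS1, and WARS1 shares 10.6%, WDR25 included. AARS1 and SARS1 share none. SARS2, the mitochondrial seryl enzyme gene, shares 46.2% with a gene on its own strand, so its counts are uncertain. The part of shared reads in any value above was not tested.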

How the data were processed

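RNA of 12 libraries, 3 per line, was sequenced after ribosomal RNA depletion and stranded library preparation, per the labels. The submitters' processing notes name edgeR 3.8.6, featureCounts 1.4.6, TopHat2 2.0.12 and Cufflinks 2.2.1, on hg38. For the annotation, low-count filter, normalization factors and use of strand, the method was not given in the sources used here. Per the file headers, the 5 tables the authors deposited hold a log2 fold change, a mean expression in log2 CPM, a p-value, its false discovery rate and the likelihood ratio as a score, for 15074 genes. Counts per library were not analysed here, so depth is unknown, and the deposited edgeR tests replaced the planned count tests.

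SEs are the absolute log2 fold change over the square root of the deposited score. For FH-5xA minus FH-WT, group variances were solved by least squares from the 5 squared SEs, in Python with numpy and scipy. The difference was tested by chi-square with 1 degree of freedom and adjusted by Benjamini-Hochberg over 15072 genes (2 were undefined). The derivation was run on simulated data whose squared SEs were built as sums of group variances, the rule it assumes. That run checks the arithmetic only. It cannot show whether SEs computed from the deposited likelihood ratios add in this way. Intervals are at 95%. Levels per kilobase use union exons of GENCODE 29 basic transcripts. Symbols matched 14974 identifiers. Every member is accounted for in the counts, and values of 2 are not reported here; transporters, ATF4 genes and other lists are described by up to 4 members of smallest p, and members by role. The members and lists were chosen with earlier results of these data known. Thresholds, an expression minimum and the variance were varied.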

Additional observations from a re-analysis of the deposited data

Results flagged for a closer look

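The derived difference between the lines with mutant and wild-type AGO2 passed its test in 3 of 34 synthetase genes, all lower and all cytosolic. Over all genes 2.13% were called lower and 1.98% higher. Cytosolic members are also better expressed, at a median of 7.96 against 5.52 log2 CPM for mitochondrial ones. Shares among genes of like expression are not given for this difference. Each form of AGO2 is represented by 1 line, so a difference between lines and a difference between forms of the protein cannot be told apart. The derived log2 difference, FH-5xA minus FH-WT, was -0.36 for SARS1, -0.33 for WARS1 and -0.23 for YARS1. In none of the 3 was the call kept with the larger variance that adds both squared SEs against knockout cells.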

How the results depend on the processing

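No paired analysis was possible because the deposited tables hold no value per library, and for the same reason no library was left out in turn. Of 31 alternatives for the 6 counts of called members, 27 gave a count within 1.5 times the one reported. In all 36 alternatives for the 12 medians the shift was at most 0.05, below the median SE of the genes. That SE exceeds the smaller medians, so the comparison with it cannot show that those medians held. With members of at least 16 CPM, the mitochondrial median in FH-5xA against knockout cells went from 0.04 to 0.08. At a false discovery rate of 0.01, FH-5xA against knockout cells had 0 called members in place of 2, and FH-WT against parental cells 9 in place of 14. In FH-5xA minus FH-WT, the 3 calls became 5 at a false discovery rate of 0.1 and 0 with the variance taken as the sum of both squared SEs against knockout cells, which is larger by construction. Depth is unknown, and CARS1, at a mean of 1.36 CPM, has the widest SE.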

Other observations

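Genes with a mean of at least 1 CPM were ranked by likeness to AARS1, by summed squared difference of centred log2 derived levels over the 4 lines. Genes of the lists read here, such as ATF4 response genes and transporters, were left out of that ranking. Among the genes outside the lists ZNF114 came nearest, followed by RIBC2 and NASPP1. In knockout against parental cells ZNF114 was at -0.58 and RIBC2 at -0.62 in the authors' deposited table, where AARS1 was at -0.62. Among the synthetase genes MARS1, EPRS1 and YARS1 came nearest to AARS1. The likeness rests on 4 lines. TARS3, a threonyl-tRNA synthetase gene outside the naming rule, was lower in FH-5xA than in knockout cells, at -0.26 ± 0.09 (edgeR false discovery rate 0.04), while TARS1 was at 0.01 ± 0.08.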
